A study of Mus musculus with 2 samples.

Results

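Lepr, Stat3, Socs3, Il6ra, Il6st, Osmr and Il1r1 are 7 genes through which hormones and cytokines reach the transcription factor STAT3 and, for Il1r1, the NF-kB pathway. They were chosen by symbol, 7 of the 19465 genes counted, for these roles and with earlier results of the same counts known, their ratios between the sections included, so those ratios are descriptions and support nothing by themselves. Leptin, a hormone of fat tissue, binds the leptin receptor, and the long form of that receptor activates the kinase JAK2 and then STAT3. Interleukin 6 binds IL6RA, oncostatin M binds OSMR, and both receptors signal through the shared chain gp130, the product of Il6st, again to JAK kinases and STAT3. In hepatocytes, the main cells of the liver, STAT3 drives the acute phase genes and its own inhibitor Socs3, whose product binds gp130 and the leptin receptor and ends the signal. IL-1 acts in parallel through IL1R1 and MYD88, and the liver is also a known source of the soluble leptin receptor.

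RNA was counted on liver sections of 5 µm, fixed in formalin and embedded in paraffin, with the Visium assay, in which paired probes that meet on an RNA are ligated and then captured on barcoded spots, and each captured molecule is counted once by its unique molecular identifier (UMI). Each genotype, AEG-1-WT and AEG-1-C75S, had 1 section of 1 animal, and these were naive, untreated female littermates of 8 weeks. AEG-1-C75S mice carry a CRISPR/Cas9 knock-in that replaces the palmitoylated cysteine at position 75 of AEG-1 with serine in every cell, and AEG-1-WT mice are the wild-type offspring of the same crosses of heterozygotes. Spots with more than 50000 UMIs were left out, which kept 2309 spots with 42246988 UMIs (median 16830 per spot) in AEG-1-WT and 2163 spots with 41674347 UMIs (median 18808) in AEG-1-C75S. Both sections shared 1887 spot barcodes, since every slide area carries the same barcode set. Hepatocyte markers were abundant in both sections, with a summed level of the 8 markers of 193754 and 201440 UMIs per 1000000 UMIs (CPM). With 1 animal per genotype there was no test, spots are not replicates, and every ratio compares these libraries, not the conditions. The 95% intervals are exact unless said otherwise and cover counting error only. They are Poisson for a level, Clopper-Pearson for a share, and the binomial interval of the pair of sums for a ratio. A spot is a small region with several cells, so fewer cells of a type and less RNA per cell cannot be told apart. Levels of different genes were not compared as amounts of RNA, because the number of probe pairs per gene was not used here. Where genes are called rare or scarce, or their shares of spots are set side by side, this describes the UMIs counted.

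Of the 7 genes, Socs3 alone has the palindrome that STAT factors bind, TTCNNNGAA, in the window from 250 bases before to 50 bases after its RefSeq start (GRCm38.p6). The palindrome reads the same on both strands. It is present at 2726 of 32851 starts (8.30%) and at one or more starts of 2582 of 27025 genes (9.55%), so a match is a description and not a site. Socs3 lies at chr11:117966079-117970047 on the minus strand in the GENCODE annotation. The RefSeq start used here lies inside that span. The 250 bases before it, chr11:117969367-117969616, are therefore within the gene as GENCODE places it. They are shown because Socs3 is the gene with a match. The palindrome is in capitals, first base at -154 when the RefSeq start is counted as 0. The same stretch of Lepr, the gene with the largest ratio between the sections, is chr4:101717157-101717406 on the plus strand, and holds no match.
Socs3: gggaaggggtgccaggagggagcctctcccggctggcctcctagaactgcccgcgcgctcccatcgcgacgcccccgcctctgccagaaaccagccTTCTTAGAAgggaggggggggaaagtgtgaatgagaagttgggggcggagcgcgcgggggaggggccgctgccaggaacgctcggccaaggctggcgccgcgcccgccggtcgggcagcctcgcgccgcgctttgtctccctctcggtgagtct
Lepr: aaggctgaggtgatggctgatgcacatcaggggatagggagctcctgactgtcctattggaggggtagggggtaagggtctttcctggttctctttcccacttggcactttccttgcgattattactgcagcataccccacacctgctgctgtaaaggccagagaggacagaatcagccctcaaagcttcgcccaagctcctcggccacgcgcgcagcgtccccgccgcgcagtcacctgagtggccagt

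Among the genes listed here as hepatocyte targets of STAT3, 6 of the 24 with a window held the palindrome. It was held by 1 of the 7 genes and 2 of 9 listed inhibitors (Cish and Ptprj). The stretches around it are shown on the strand of the gene for 3 of these targets that differed between the sections by a log2 ratio of at least 0.32 in size, as given further on, and for 2 that did not.
Fga, match at -234: gcccccatTTCCTGGAAtgtagatt
Fgb, match at -162: ctcaatgaTTCGAGGAAccccctgt
Steap4, match at -116: ttgaactcTTCCCGGAAactttgct
Apcs, match at -244: atcttcTTCTAGGAAagcacagg
Itih4, match at -51: acctgcatTTCCGAGAActtgcacc
Of these 5 targets, Fga, Fgb and Steap4 were higher in AEG-1-C75S, and Apcs and Itih4 had log2 ratios of -0.09 and -0.11.

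Lepr, the leptin receptor, had the largest ratio between the sections of the 7 genes. It lies at chr4:101717404-101815352 on the plus strand (GENCODE annotation of GRCm38, as for the other positions). In the AEG-1-WT section 412 Lepr UMIs were counted, a level of 9.75 CPM (8.83 to 10.7). The AEG-1-C75S section had 1263, or 30.3 CPM (28.7 to 32.0). The intervals lay far apart, and the level was 3.11-fold higher in AEG-1-C75S, a log2 ratio of 1.64 (1.47 to 1.80) that ranked 13 among the 10389 genes that reached 200 UMIs in the sections together. The UMIs were spread over many spots: 363 of 2309 spots (15.7%, 14.3% to 17.3%) held a Lepr UMI in AEG-1-WT and 914 of 2163 (42.3%, 40.2% to 44.4%) in AEG-1-C75S, and no spot held more than 5. After thinning to 3000 UMIs per spot, without the 4 and 3 spots below that depth, the shares were 3.43% (2.72% to 4.25%) and 7.82% (6.73% to 9.04%), so the order of the sections held at equal depth. Probe sequences were not analysed, so which forms of the transcript were counted is not known. The signalling and the short forms of the receptor were not told apart.

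As a background for these shares, 12 genes known mainly from other tissues were counted. Gfap, an astrocyte gene, had a UMI in 26 and 39 spots (1.13% for AEG-1-WT, 1.80% for AEG-1-C75S) and Nrgn, a neuronal gene, in 14 and 31 (0.606% and 1.43%), the highest of the 12. Gfap is also used as a marker of liver stellate cells, so its share may not be background alone. Ins1, Ins2, Prl, Prm1, Prm2 and Sftpc had none in either section, and for a count of 0 the limit used was 3 counts, a share of up to 0.130% of the spots of AEG-1-WT or 0.139% for AEG-1-C75S. The exact 95% intervals of these shares end slightly higher, at 0.160% and 0.170%. All 7 receptor and STAT3 genes lay above these shares in both sections, Osmr being the lowest with 12.7% and 14.4%.

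The chains of the interleukin 6 family differed little between the sections. Il6ra, the chain that binds the cytokine (chr3:89864059-89913196, minus strand), had 49.8 CPM in AEG-1-WT and 51.6 CPM in AEG-1-C75S, a log2 ratio of 0.05 (-0.04 to 0.14). An antisense gene, Gm42809, overlaps its start in the annotation and is not in the tables. Il6st, the gp130 chain (chr13:112464070-112510086, plus strand), had 141.5 CPM (138.0 to 145) and 163 CPM (159 to 167), a log2 ratio of 0.20 (0.15 to 0.25), or 15.2% higher in AEG-1-C75S. Osmr, the oncostatin M chain (chr15:6813577-6874969, minus strand), was rare, with 332 and 339 UMIs, or 7.86 CPM (7.04 to 8.75) and 8.13 CPM (7.29 to 9.05), and its log2 ratio was 0.05 (-0.17 to 0.27). For Il6ra and Osmr the intervals of the sections overlapped, so no difference was detectable at this depth, and the intervals of the ratios end at 0.14 and 0.27.

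Il1r1, the receptor that binds IL-1 (chr1:40225080-40317257, plus strand), had 1898 UMIs or 44.9 CPM (42.9 to 47.0) in AEG-1-WT and 2791 UMIs or 67.0 CPM (64.5 to 69.5) in AEG-1-C75S. Its log2 ratio was 0.58 (0.49 to 0.66). Its share of spots with a UMI was 54.5% and 67.3%, and 13.4% and 17.8% after thinning.

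Stat3 itself (chr11:100885098-100939540, minus strand) had 5054 UMIs or 119.6 CPM (116 to 123) in AEG-1-WT and 6094 UMIs or 146 CPM (143 to 150) in AEG-1-C75S, a log2 ratio of 0.29 (0.24 to 0.34). Its gene overlaps the end of Stat5a on the opposite strand, and Stat5a had a log2 ratio of 0.11 (-0.02 to 0.25). Socs3, the feedback inhibitor, had 655 UMIs or 15.5 CPM (14.3 to 16.7) and 984 UMIs or 23.6 CPM (22.2 to 25.1), a log2 ratio of 0.61 (0.46 to 0.75). A Socs3 UMI was found in 24.1% of the AEG-1-WT and 34.6% of the AEG-1-C75S spots, and in 4.64% and 7.73% after thinning.

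**Figure D1:**
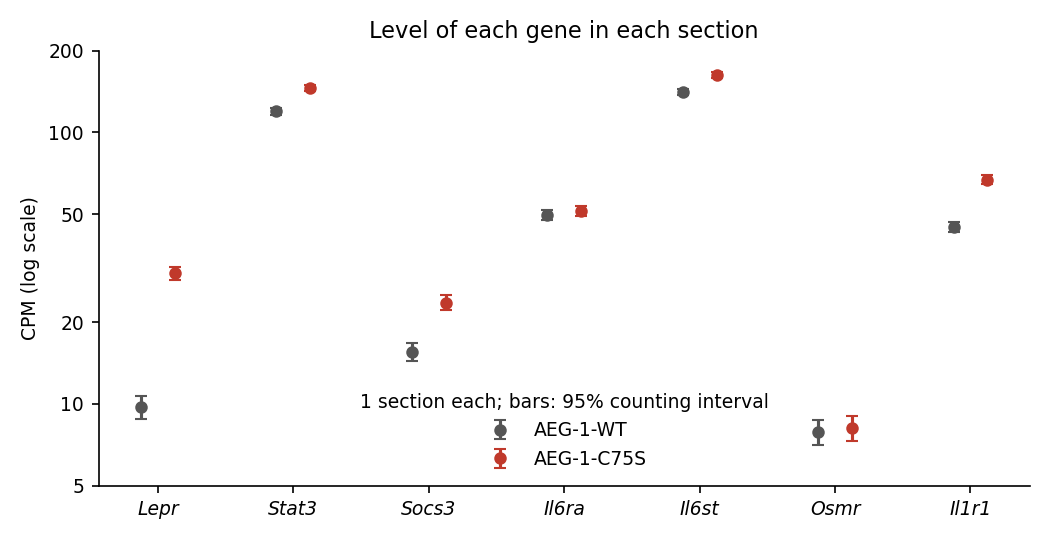
Level of each of the 7 genes in UMIs per 1000000 (CPM, log axis) in the AEG-1-WT and the AEG-1-C75S section, with 95% counting intervals. Lepr stood at 9.75 against 30.3 CPM, Socs3 and Il1r1 were also apart, and the intervals of Il6ra and of Osmr overlapped between the sections.

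Counted at a log2 ratio of at least 0.32 in size, 3 of the 7 genes were higher in AEG-1-C75S (Lepr, Socs3 and Il1r1) and 0 were lower, with Stat3 just short of that ratio. Over all 10389 genes, 5.90% were higher and 11.6% lower by as much, with a median log2 ratio of -0.05. Since the genes were chosen with this contrast known, nothing is read from their share. The same UMIs were then compared over spots of like depth, which is a check on depth and no independent support. In 10 classes of spots by total UMIs, Lepr was higher in AEG-1-C75S in 10 of 10 classes, with log2 ratios from 1.19 to 2.32 and every interval above 0. Socs3 and Il1r1 were likewise higher in 10 of 10 classes, with 0.25 to 0.79 and 0.34 to 0.79, and their intervals lay above 0 in 7 and 8 classes. Stat3 and Il6st were higher in 9 of 10 classes, and Il6ra and Osmr in 5 of 10. How many of all genes were higher in every class was not counted, so nothing is read from these counts. The classes were uneven. The shallowest had 40 spots with 6 Lepr UMIs in AEG-1-WT, and 407 spots with 128 Lepr UMIs in AEG-1-C75S.

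The other genes of the pathway did not all follow the receptors. The ligands were scarce. Lep, for leptin, had 1 UMI in AEG-1-WT but 0 in AEG-1-C75S, where a count of 0 allows up to 3, and Il6 had 9 and 10, Osm 5 and 3, Lif 2 and 3, and Il11 1 and 1. Only 3 of the 10 ligands reached 200 UMIs, and none of them was past the ratio of 0.32: Ctf1, for cardiotrophin 1, with a log2 ratio of -0.20 (-0.47 to 0.07), Il1b with -0.03 (-0.30 to 0.25) and Il1a with 0.24 (0.02 to 0.47).

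The next list held 15 receptor chains and related proteins outside the 7 genes that reached 200 UMIs. Of these, 2 were higher and 2 lower by a log2 ratio of 0.32 or more, with a median log2 ratio of -0.01. Neither of the higher ones is a receptor chain, and both lower ones are. Leprotl1, a relative of Leprot, the leptin receptor overlapping transcript, was higher, with 25.9 and 37.3 CPM (0.53, 0.41 to 0.64), and so was Il1rn, which encodes the secreted antagonist of IL1R1, with 28.2 and 40.3 CPM (0.51, 0.41 to 0.62). Il1rap, the accessory chain that IL1R1 needs to signal, was lower, with 139.9 and 101 CPM (-0.47, -0.53 to -0.41), so the ligand-binding and the accessory chain of the IL-1 receptor moved apart between these sections. Cntfr, which binds ciliary neurotrophic factor, was lower too (-0.36, -0.58 to -0.13). Lifr, the chain that pairs with gp130 for leukemia inhibitory factor, had 537 and 478 CPM (-0.17, -0.20 to -0.14). Leprot, named for its place beside Lepr, had 9.73 and 11.04 CPM, and its log2 ratio of 0.18 (-0.01 to 0.38) was far under that of Lepr.

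None of 9 JAK kinases and other STATs was past the fold, with a median log2 ratio of -0.03 and a range from -0.26 for Jak3 to 0.14 for Stat5b. Jak2, the kinase bound to the leptin receptor, had -0.17 (-0.30 to -0.04), and Jak1 had -0.03. Of 15 inhibitors, 2 were higher and 1 lower. Socs2, an inhibitor of growth hormone signalling, had 165 and 426 UMIs (1.39, 1.13 to 1.66), and Cish, a STAT5 target of the same family, had 37.0 and 66.6 CPM (0.85, 0.76 to 0.94). Socs5 lay at the edge of the fold with 460 and 363 UMIs (-0.32, -0.52 to -0.12), and the phosphatases Ptpn1, Ptpn2, Ptpn6 and Ptpn11 lay between 0.02 and 0.19.

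The genes listed here as STAT3 targets of hepatocytes were split. The list was chosen with earlier results of these data known, so nothing is read from the counts. Whether each gene is such a target in these sections was not tested, and its members Saa1 and Saa2 were not analysed. Of 27 with 200 UMIs, 7 were higher and 4 lower by a log2 ratio of 0.32 or more, with a median log2 ratio of 0.10. All 3 chains of fibrinogen, the clotting protein, were higher: Fga with 7566 and 11059 CPM (0.55), Fgb with 8475 and 11709 CPM (0.47) and Fgg with 4256 and 6087 CPM (0.52). Orm2, an acute phase glycoprotein, had 39.1 and 87.2 CPM (1.16, 1.07 to 1.24), Junb, an immediate early transcription factor, 94.1 and 157 CPM (0.74, 0.68 to 0.79), and Steap4, a metalloreductase, 75.4 and 95.2 CPM (0.34, 0.27 to 0.40). Il1rn, already given, was the other. On the lower side were Hamp, the iron hormone hepcidin, with 928 and 503 CPM (-0.88, -0.91 to -0.86), the serum amyloid genes Saa3 (-0.61, -0.92 to -0.31) and Saa4 (-0.40, -0.44 to -0.36), and Lcn2, for lipocalin 2 (-0.45, -0.61 to -0.29). The acute phase genes Hp, Crp and Lbp lay between 0.02 and 0.04. In the IL-1 pathway inside the cell, 1 of 15 genes, the adaptor Tab2 (0.47, 0.40 to 0.54), was higher and none was lower by the fold, and the NF-kB target Nfkbia had -0.04 (-0.10 to 0.03).

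**Figure D2:**
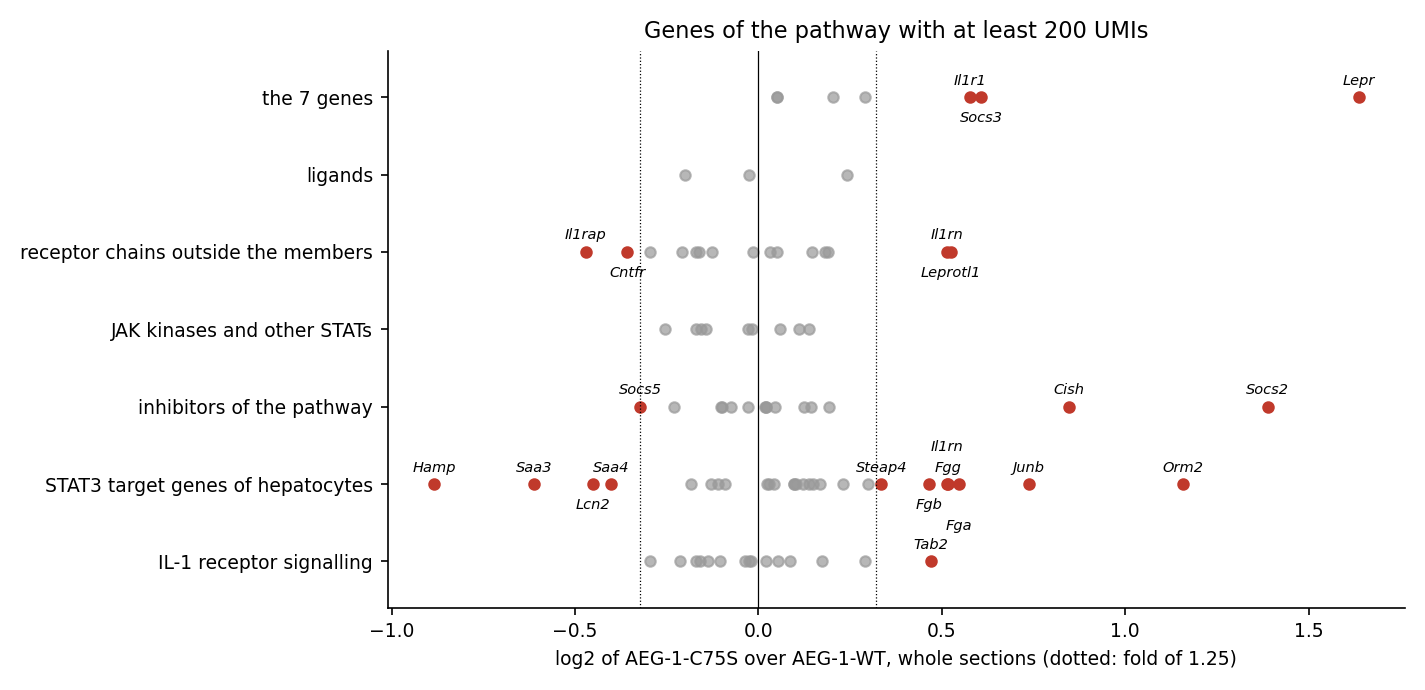
Log2 ratio between the sections (AEG-1-C75S against AEG-1-WT) for the 7 genes and the lists of the pathway, 1 point per gene with at least 200 UMIs, named and in red where past 0.32 in size (dotted lines). Lepr at 1.64 and Socs2 at 1.39 lay farthest to the right and Hamp at -0.88 farthest to the left, while none of the ligands, JAK kinases and other STATs was past the fold.

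Cell types and states moved between the sections together with these genes, and their part in the ratios was not tested. Of the Kupffer cell markers, for liver macrophages, 4 of 5 were higher by a log2 ratio of 0.32 or more, with a summed level of 866 CPM in AEG-1-WT and 1159 CPM in AEG-1-C75S. Marco had a log2 ratio of 1.62 and Clec4f, a defining marker, 0.10. Stellate cell markers were higher for 4 of 7 and lower for 1 (639 and 796 CPM) and leukocyte markers higher for 4 of 9 (81.9 and 106 CPM). Cholangiocyte markers, for bile duct cells, were lower for 4 of 5 (133 and 98.5 CPM), portal connective tissue markers for 7 of 7 (208 and 104 CPM), and red blood cell markers for 4 of 4 (627 and 416 CPM). The 6 sinusoidal endothelium markers were within the fold (724 and 743 CPM). No marker of these lists was at 0 in both sections. Fasting genes were higher for 7 and lower for 0 of 12, with a median log2 ratio of 0.72. The highest were Fgf21 (2.74) and Igfbp1 (2.66), but only 9 of the 12 were above 0, and the lowest ratio was -0.31. Clock genes of the dusk side were lower for 6 of 7 (median -1.23) and those of the opposite side higher for 2 of 4 (median 0.36). Lipogenic genes of the fed state were higher for 1 and lower for 3 of 9 (median -0.17), and glucocorticoid targets were lower for 5 and higher for 2 of 9 (median -0.68).

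To see where in the lobule the genes were counted, spots were ranked within each section by the ratio of Cyp2f2, a portal gene, to Cyp2e1, a central gene, and divided into 5 bins of equal size, from bin 1 at the portal end to bin 5 at the central end. Genes not used for the ranking followed it: Hal, a portal enzyme, went from 363 to 83.9 CPM in AEG-1-WT and from 319.8 to 83.8 CPM in AEG-1-C75S, and Cyp1a2, a central enzyme, from 163 to 871 and from 167 to 760.3 CPM.

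Socs3 had the clearest gradient of the 7 genes, and it was the same way in both sections. From bin 1 to bin 5 it had 11.4, 13.2, 12.97, 18.9 and 21.3 CPM in AEG-1-WT, and 16.7, 20.8, 25.01, 25.2 and 30.3 CPM in AEG-1-C75S. The central bin was above the portal one by a log2 ratio of 0.90 (0.52 to 1.28) and 0.86 (0.55 to 1.17). Il1r1 rose less toward the central end, from 40.0 to 48.8 CPM in AEG-1-WT (0.29, 0.07 to 0.51) and from 56.9 to 75.2 CPM in AEG-1-C75S (0.40, 0.23 to 0.58). The median gene had a ratio of 0.13 for AEG-1-WT, 0.10 for AEG-1-C75S. The Il1r1 interval held the median in AEG-1-WT, where its highest and lowest bins had overlapping intervals. For AEG-1-C75S it lay above the median, and those bins were apart.

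Lepr differed between the sections in its course. For AEG-1-WT it had 11.7, 11.1, 9.62, 9.15 and 7.18 CPM from bin 1 to bin 5, lowest at the central end (-0.70, -1.20 to -0.21), while in AEG-1-C75S it had 31.1, 28.3, 28.9, 30.3 and 33.0 CPM, with no end clearly higher (0.08, -0.17 to 0.33). With the bins put in order of their level, every neighbouring pair had overlapping intervals in both sections. The highest and lowest bin had intervals apart in AEG-1-WT and overlapping ones in AEG-1-C75S. The log2 ratio along the axis was greater by 0.78 in AEG-1-C75S (0.25 to 1.32), and the intervals of that difference reached 0 for the other 6 genes. The intervals of this difference are normal approximations and not exact. The ratio between the sections was therefore 2.66-fold in bin 1 (log2 1.41, 1.07 to 1.77) and 4.59-fold in bin 5 (2.20, 1.78 to 2.64). These rest on 93 and 57 UMIs in AEG-1-WT and 250 and 276 in AEG-1-C75S.

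Stat3, Il6st and Il6ra were close to flat, with overlapping intervals of their highest and lowest bins in both sections. Stat3 ran between 115 and 126 CPM in AEG-1-WT and between 142 and 152 CPM in AEG-1-C75S, with axis ratios of -0.12 (-0.25 to 0.01) and -0.09 (-0.21 to 0.03). Il6st had axis ratios of 0.00 (-0.12 to 0.12) and -0.09 (-0.20 to 0.02) and Il6ra -0.09 (-0.29 to 0.11) and 0.08 (-0.12 to 0.27). Against the median gene, with 0.13 for AEG-1-WT, 0.10 for AEG-1-C75S, the intervals of Stat3 and Il6st lay below in both sections. That of Il6ra lay below for AEG-1-WT only. Osmr went from 8.55 CPM in bin 1 through 10.1 in bin 2 to 5.80 in bin 5 of AEG-1-WT (-0.56, -1.13 to 0.00). The AEG-1-C75S section had its lowest level in bin 4, with 5.25 CPM (axis ratio -0.21, -0.69 to 0.26). Its highest bin was 1.75-fold and 1.898-fold above its lowest in these sections, with intervals apart in both, and the order of the bins differed.

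**Figure D3:**
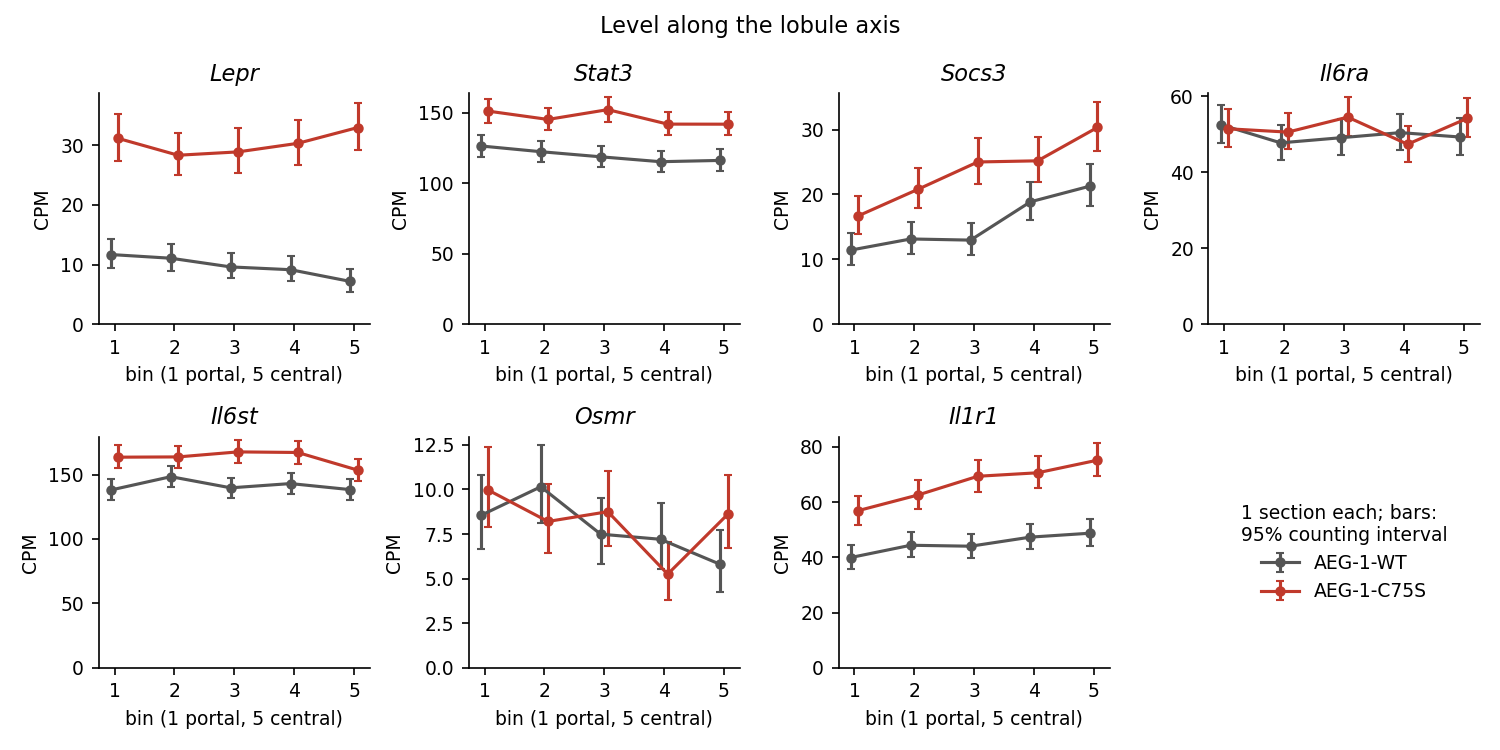
Level (CPM) of each of the 7 genes in the 5 bins of the lobule axis, bin 1 portal and bin 5 central, in the AEG-1-WT and the AEG-1-C75S section, with 95% counting intervals. Socs3 increased toward the central end in both sections, and Lepr went from 11.7 to 7.18 CPM in AEG-1-WT and from 31.1 to 33.0 CPM in AEG-1-C75S.

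By a fold of 1.5 between the end bins, 1 of the 7 genes was central (Socs3) and 1 portal (Lepr) in AEG-1-WT, where 5.03% of 8607 genes with at least 100 UMIs in those bins were central and 2.68% portal. In AEG-1-C75S, 1 gene was central (Socs3) and 0 were portal, against 4.54% and 1.99% of 8598 genes. The difference of the axis ratios was greater in AEG-1-C75S by 1.5-fold or more for 1 of the 7 genes (Lepr), and for 1.68% of the 8388 genes measured in both. These genes were chosen with earlier results of the same counts known, so nothing is read from these shares either.

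Within each bin, Lepr, Stat3, Socs3, Il6st and Il1r1 were higher in AEG-1-C75S in 5 of 5 bins, with every interval above 0. Here too the bins were matched only by rank within a section. They divide the same UMIs as the ratios of whole sections, for genes chosen with that contrast known. The share of all genes higher in every bin was not counted, so nothing is read from this count. The log2 ratios ran from 0.25 to 0.36 for Stat3, from 0.42 to 0.95 for Socs3 with the highest in bin 3, from 0.14 to 0.26 for Il6st and from 0.50 to 0.66 for Il1r1. Il6ra lay between -0.09 and 0.15 with every interval across 0. Osmr lay between -0.46 and 0.57, and its interval left 0 only in bin 5 (0.01 to 1.13).

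**Figure D4:**
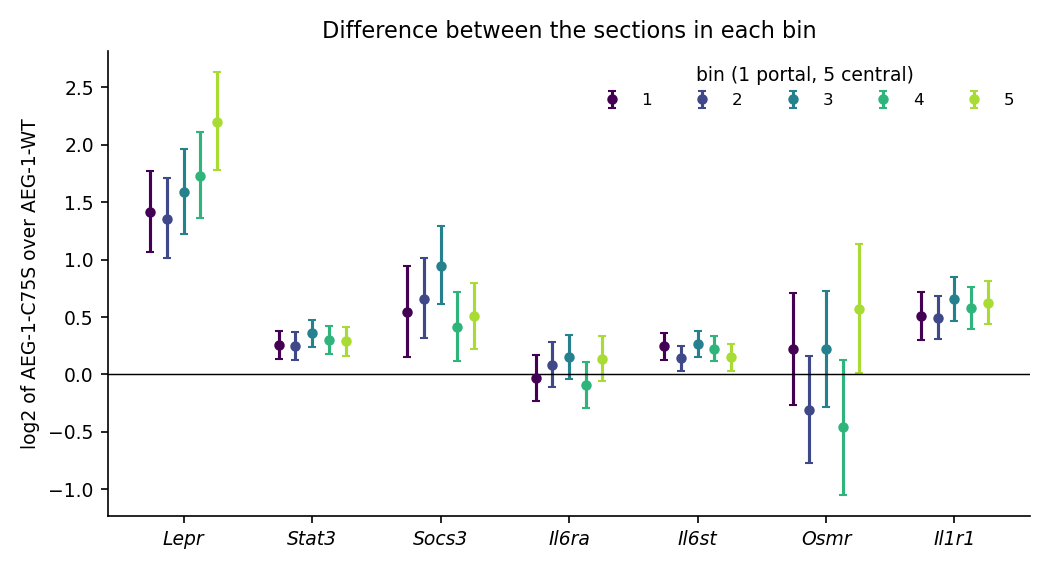
Log2 ratio between the sections (AEG-1-C75S against AEG-1-WT) in each bin of the lobule axis, with 95% counting intervals, bin 1 portal (dark) to bin 5 central (light). The points of Lepr ran from 1.36 to 2.20 and were highest in bin 5, and those of Stat3, Socs3, Il6st and Il1r1 were all above 0.

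Spots rich in a cell type were then set against the other spots of the same section and bin, taking the 10% of the spots with the highest share of that type's markers, which hold none of the 7 genes. Over the 7 genes, the cell types and the sections this gave 98 ratios, of which 11 had an interval above 0 and 4 below 0. The same was not counted over all genes, so nothing is read from these numbers. The median gene had ratios from -0.01 to 0.11 in these comparisons. Osmr stood out in AEG-1-WT in spots rich in portal connective tissue or cholangiocyte markers. In the 230 spots richest in portal connective tissue markers it had 17.9 CPM, on 78 UMIs, against 6.70 CPM in the others (1.41, 1.03 to 1.79). In those richest in cholangiocyte markers it had 15.2 against 7.004 CPM (1.12, 0.71 to 1.51). Whether these spots lay near portal tracts was not tested, since spot coordinates were not analysed. The AEG-1-C75S section gave 6.83 against 8.25 CPM, on 23 UMIs, for connective tissue (-0.27, -0.95 to 0.34), and 8.67 against 8.09 CPM for cholangiocytes (0.10, -0.49 to 0.64). Osmr was higher there in other spots, those rich in stellate cell markers, with 11.8 against 7.78 CPM (0.60, 0.10 to 1.06), and in sinusoidal endothelium markers, with 11.4 against 7.84 CPM (0.53, 0.02 to 1.01). The rich spots held only 43 and 40 Osmr UMIs, and both intervals end near 0. The ratios of AEG-1-WT in these spots were 0.05 (-0.56 to 0.60) and 0.45 (-0.09 to 0.94). The connective tissue spots were not alike in both sections, with 1190 CPM of these markers in AEG-1-WT and 449 CPM in AEG-1-C75S, and with a median of 17191 and 12370 UMIs per spot against 16796 and 19277.5 in the others. With a single limit for both sections, an alternative chosen after seeing the data, 231 spots in the AEG-1-WT section were rich and 130 in the other, and the ratios were 1.504 (1.13 to 1.87) and 0.15 (-0.62 to 0.84), the latter on 18 UMIs. The marker level in those spots was still 1206 and 581 CPM.

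Lepr was also higher in the connective tissue spots of AEG-1-WT, with 13.3 against 9.34 CPM (0.51, 0.08 to 0.91), and Il6st with 163 against 139 CPM (0.23, 0.11 to 0.34). The median gene had a ratio of 0.11 there, which both intervals held, that of Il6st only at its lower end. In AEG-1-C75S the ratios were 0.19 for Lepr and 0.12 for Il6st, and both intervals reached 0. With the single limit, Il6st in that section had 0.17 (0.02 to 0.33), an interval above 0, and Lepr had -0.07 (-0.47 to 0.31). For AEG-1-WT the single limit gave Lepr 0.62 (0.20 to 1.01) and Il6st 0.25 (0.13 to 0.36). In spots rich in Kupffer cell markers, none of the 7 genes was higher with an interval above 0 in either section, and Stat3 in AEG-1-C75S was lower (129.5 against 148 CPM, -0.19, -0.33 to -0.06). Il6ra had no interval that left 0 for any of the 7 cell types. In spots rich in red blood cell markers, Lepr in AEG-1-C75S had 38.7 against 29.7 CPM (0.38, 0.08 to 0.67), and these spots were shallow, with a median of 9700 UMIs against 19671.5.

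**Figure D5:**
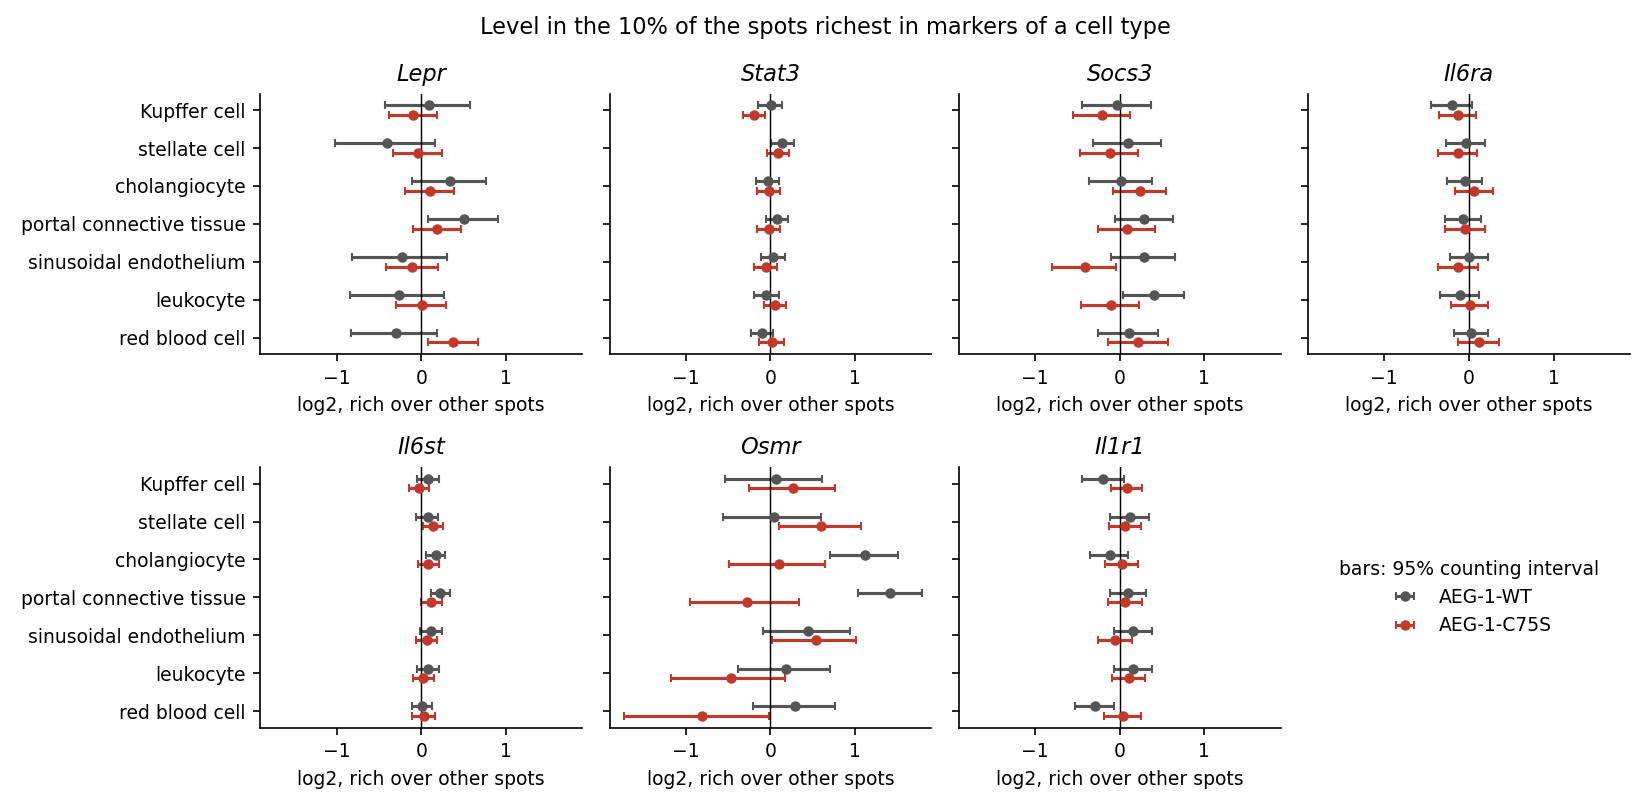
Log2 ratio of the level of each of the 7 genes in the 10% of the spots richest in markers of a cell type over the other spots of the same bins, for the AEG-1-WT and the AEG-1-C75S section, with 95% counting intervals. Osmr lay at 1.41 in the portal connective tissue spots of AEG-1-WT and at -0.27 in those of AEG-1-C75S, and most other intervals reached 0.

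Last, the genes whose log2 CPM over the 10 bins of both sections went most closely with each gene were listed among 6883 genes with at least 1000 UMIs. The 10 points come from 2 libraries, so a gene that differs between the sections in the same direction has a high Pearson r, and r is a description here. Stat3 went with Cish (r = 0.989), Orm2 (0.986) and Onecut1 (0.984), of which the first is an inhibitor and the next an acute phase gene on the lists above. Socs3 went with Car8 (0.982), Cyp4a10 (0.981) and Dusp6 (0.981), and Cyp4a10, a fatty acid hydroxylase, and Dusp6, a phosphatase of the ERK kinases, shared its central gradient, with axis ratios of 1.22 and 1.07 in AEG-1-WT. Il1r1 went with Slc25a33, Junb and Fos (0.994, 0.994 and 0.993), and Il6st with Arpc4, Fcer1g and Coro1a (0.972, 0.972 and 0.960), the last of them a leukocyte marker used here. Il6ra had lower values, with Elp3 at 0.886. Lepr, whose 412 UMIs in AEG-1-WT are under the 500 asked of the others and which was added after its values were seen, went with Gadd45g (0.996), Osgin1 (0.995) and Txnip (0.990). Gadd45g, a stress-induced gene, had a ratio of 1.80 between the sections and a like course along the axis (-0.87 for AEG-1-WT, 0.12 for AEG-1-C75S). Genes were picked here by r over these same bins, so likeness of course follows from the choice, also for Cyp4a10 and Dusp6.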

How the data were processed

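The deposited tables, 1 per section, hold raw UMI counts per gene and spot under tissue, which the authors did not normalize. The submitters' processing notes name Space Ranger 2.0.1, Seurat 4.3.0 and the mm10 build. There were 0 columns of other samples. For 11 rows of repeated symbols the first entry was used.

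Here spots with over 50000 UMIs were left out, as in the methods, and UMI counts were summed over spots and divided by the total (CPM) with numpy 2.4.6, pandas 2.3.3, scipy 1.17.1 and matplotlib 3.10.9 under python 3.11.15. TMM factors came from edgeR 4.0.16 in R 4.3.3. Ratios between the sections needed 200 UMIs in all, and those along the axis 100 in the end bins. The axis was (Cyp2f2 + 1)/(Cyp2e1 + 1), and thinning used seed 1. Alternatives changed the spots kept, the cell types in them, scaling, weights, depth, axis, minimum or fold (closing section), and 1 was added after the data were seen. The code was tested on simulated counts. With 1 section per genotype no test was made.

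The 7 genes, the gene lists and the rules were chosen with earlier results of these data known. Named were the 7 genes, in each pathway list the genes past a log2 ratio of 0.32 in size (at most 8, largest first), and for each of the 7 with at least 500 UMIs per section the 3 genes most alike in profile. Other genes were named as examples after their values were seen. Saa1, Saa2, Hba-a1, Ciart, Elovl6, spot coordinates and probe sequences were not analysed here. Promoter windows are RefSeq's on GRCm38.p6, and positions are GENCODE's on GRCm38. The sequence around 1 further match is not reported here.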

Additional observations from a re-analysis of the deposited data

Results flagged for a closer look

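These values had opposite signs in the sections, with an interval that left 0 in at least 1 of them. The differences were not tested, since there was 1 section per genotype, and no explanation was weighed. Lepr had a log2 ratio of the central over the portal bin of -0.70 in AEG-1-WT but 0.082 in AEG-1-C75S.

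The others are log2 ratios of spots rich in a cell type's markers over the other spots. Osmr in portal connective tissue spots had 1.41 for AEG-1-WT, -0.27 for AEG-1-C75S. Socs3 had 0.28 and -0.41 in sinusoidal endothelium spots, and 0.41 and -0.10 in leukocyte spots. Stat3 in Kupffer cell spots had 0.00069 and -0.19. In red blood cell spots, Lepr had -0.30 and 0.38, Osmr 0.29 and -0.81, and Il1r1 -0.30 and 0.034, and those spots held a median of 18462.5 UMIs for AEG-1-WT, 9700 for AEG-1-C75S, against 16699 and 19671.5 in the others.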

How the results depend on the processing

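No paired analysis was possible because there was 1 section per genotype. Over 10 alternatives, the log2 ratio of Lepr between the sections ranged from 1.252 to 1.75, and those of Stat3, Socs3, Il6st and Il1r1 stayed above 0. The count of genes higher by 0.32 or more was 3 or 4 of the 7 under every alternative at that ratio, and 2 with a fold of 1.5 in its place. That of genes lower was 0 throughout. Thinning each spot to 3000 UMIs, which left Lepr 82 UMIs for AEG-1-WT, 183 for AEG-1-C75S, gave 1.252 for Lepr, 0.21 for Stat3, 0.80 for Socs3 and 0.45 for Il1r1. TMM factors raised every log2 ratio by 0.06 and gave 0.35 for Stat3, past the 0.32 counted here, and 0.26 for Il6st. Spots matched on total UMIs gave -0.039 for Il6ra.

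Along the axis, Lepr in AEG-1-WT ranged from -1.15 to -0.59 over 8 alternatives. Thinning gave 0.13 for Stat3, 0.33 for Il6st and 0.67 for Il1r1 in AEG-1-WT, and -0.24 for Lepr, -0.80 for Osmr and 0.66 for Il1r1 in AEG-1-C75S. It left 2 central genes of the 7 in AEG-1-WT, 2 in AEG-1-C75S, and 1 portal gene in AEG-1-C75S. An axis of 10 bins in place of 5 gave -1.17 for Osmr and 2 portal genes in AEG-1-WT. With a fold of 2, the central counts were 0 in both sections and the portal count in AEG-1-WT was 0. Depth limits Osmr and Lepr most, with under 100 UMIs in every bin of AEG-1-WT, and for Osmr in every bin of AEG-1-C75S too. Socs3 had 91 UMIs in bin 1 of AEG-1-WT.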
